A study of Mus musculus with 17 samples.

Results

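Spleen libraries from mice given SLR14 or polyIC were split by their level of red cell precursor transcripts, and the 3 erythroid-high libraries were compared with the 3 erythroid-low ones in genes outside the erythroid lists. The erythroid-high libraries were SLR14-2, polyIC-2 and polyIC-3, and the erythroid-low libraries were SLR14-1, SLR14-3 and polyIC-1, out of 17 libraries in the series. The classes are not groups of the study. They were formed from the erythroid transcript level itself, so that level is given as a description, and only genes outside the erythroid lists were tested, with the treatment as a covariate.

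The study measured RNA from mouse spleen after SLR10, SLR14, polyIC or pppNS (3 libraries each), after the vehicle (2 libraries) and in naïve mice (3 libraries). SLR10 and SLR14 are stem-loop RNAs made to activate RIG-I, the sensor of viral RNA ends in the cytosol, and polyIC is a synthetic double-stranded RNA. Every mouse is labelled as strain CB57BL/6NCrl, and the same injection text stands with every library, 25 µg of RNA in 200 µl into a vein after mixing with the polymer carrier in vivo-jetPEI at an N/P ratio of 8. It names only the SLRs, so how polyIC was given is not stated apart, and the time between injection and collection and the age of the mice are not given in the sources used here. Replicates of a group are taken as separate mice, although nothing in the labels says so in words. Without that, p-values measure only the spread between these libraries.

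In mice the spleen, unlike the human spleen, makes red cells throughout life, and it can expand this production strongly after blood loss, infection or inflammation. Red cell precursors pass through several fast divisions while they build up haemoglobin, the membrane skeleton and the enzymes of heme synthesis, and then condense and expel their nuclei and clear their mitochondria. Gata1 and Klf1 are the transcription factors that switch on most of these genes, and the erythropoietin receptor Epor keeps the precursors alive.

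Libraries held 26.5 M to 42.8 M reads, and 1 read was worth 0.0175 to 0.0431 CPM. All values are reads divided by the authors' normalised library size, here called CPM, and differences are on the log2(CPM + 0.5) scale, which understates changes of genes near or under 0.5 CPM. Xist was at 537 to 767 CPM in the 6 libraries and Ddx3y at 0 in all 17, so the classes did not differ in the sex of the mice. T cell, B cell and red pulp macrophage markers were present in all libraries, as the tissue label has it. The pancreas list, for the organ that lies against the spleen, summed to 14.7 to 18.9 CPM in erythroid-high and 7.40 to 12.6 CPM in erythroid-low libraries, with 2 of 25 members high enough to be tested. The liver list summed to at most 1.89 CPM. The part of these other tissues in the results was not tested.

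Promoters of 3 genes are shown because genes that set or followed the classes hold certain short motifs in them more often than other genes do. Each is the 250 bases before the RefSeq start of a gene (build GRCm38.p6), 5′ to 3′ on the gene's strand. Ccnb2, a mitotic cyclin, and Mki67, the proliferation antigen Ki-67, are among the tested mitosis genes, and Epor is an erythroid gene that served to describe the classes. Capitals mark TTTGAA and CCAAT (or its reverse ATTGG) in the first 2, and in Epor the letters CTTATCT, the reverse of AGATAAG, which GATA factors are known to bind. Such windows of Mcm10 and Gata1 were searched too, for the E2F letters and for the GATA and KLF-type letters given below. They held 0 matches and are not shown, so the 3 shown are those with matches.

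Ccnb2, chr9:70421555-70421804, minus strand: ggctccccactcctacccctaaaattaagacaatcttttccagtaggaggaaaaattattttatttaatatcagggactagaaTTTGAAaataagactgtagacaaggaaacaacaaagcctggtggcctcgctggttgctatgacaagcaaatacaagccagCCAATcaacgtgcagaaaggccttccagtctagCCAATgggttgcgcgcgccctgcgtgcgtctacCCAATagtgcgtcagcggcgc

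Mki67, chr7:135716380-135716629, minus strand: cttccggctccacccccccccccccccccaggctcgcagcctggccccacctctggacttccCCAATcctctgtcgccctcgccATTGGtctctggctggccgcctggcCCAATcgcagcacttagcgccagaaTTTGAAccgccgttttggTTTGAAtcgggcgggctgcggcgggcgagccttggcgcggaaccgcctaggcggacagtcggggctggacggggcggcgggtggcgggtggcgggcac

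Epor, chr9:21963577-21963826, minus strand: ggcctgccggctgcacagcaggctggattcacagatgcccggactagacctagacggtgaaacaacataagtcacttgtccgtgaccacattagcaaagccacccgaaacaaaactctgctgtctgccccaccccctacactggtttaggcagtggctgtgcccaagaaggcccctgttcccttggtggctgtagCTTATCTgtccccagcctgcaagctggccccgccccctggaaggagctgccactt

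Motifs were counted on both strands in the 300 bases from 250 before to 50 after the start, in the 27025 genes with such a window. TTTGAA, the core of the element known from genes that peak in mitosis, was in 31 of 45 mitosis promoters (68.9%), against 14.4% of the 9467 tested genes with a window. It was in 6 of 35 DNA replication promoters (17.1%). The E2F letters TTTGGCGC, TTTCCCGC or TTTGGCGG were in 16 of 35 DNA replication promoters (45.7%), 2 of 45 mitosis promoters and 4.39% of tested genes. CCAAT was in 33 of 45 mitosis promoters (73.3%) and 22 of 35 DNA replication promoters (62.9%), against 42.9% of tested genes. AGATAAG or TGATAAG was in 11 of 17 erythroid core promoters (64.7%) and in 6.05% of all promoters, and in none of the mitosis or DNA replication promoters. The KLF-type letters CCACACCC were in 2 of 17 erythroid core promoters, against 4.09% of all. These shares describe sequence letters and no binding was measured.

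The erythroid genes that set the classes moved as a block. Over the 23 core erythroid genes, the mean log2 level was 8.69 in SLR14-2, 9.18 in polyIC-2 and 8.07 in polyIC-3, and 4.45 in SLR14-1, 4.59 in SLR14-3 and 3.13 in polyIC-1. No library of the 6 lay between the classes. The 3 SLR10 libraries lay at 4.14 to 4.57, close to the erythroid-low SLR14 libraries, vehicle at 4.34 to 5.11, naïve at 5.72 to 6.65 and pppNS at 7.21 to 8.79. Genes of the core and wider erythroid lists took 4.72% to 8.35% of the reads in named genes in erythroid-high and 0.826% to 1.16% in erythroid-low libraries.

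**Figure D1:**
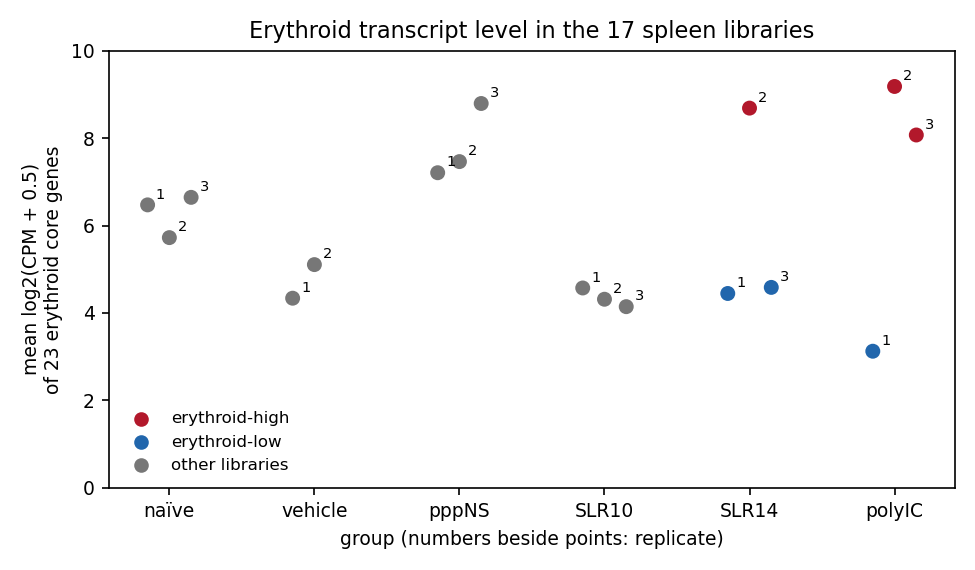
Mean log2(CPM + 0.5) of the 23 erythroid core genes (vertical axis) for all 17 libraries, grouped by treatment and marked with the replicate number. Red points are the erythroid-high libraries at 8.07 to 9.18, blue points the erythroid-low libraries at 3.13 to 4.59, and grey points the other 11 libraries.

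All 23 core genes were higher in every erythroid-high than in every erythroid-low library, with log2 differences of 2.31 to 6.70 (median 5.60). The beta globin gene Hbb-bs (chr7:103826534-103828096) was at 2072, 2064 and 1743 CPM in the erythroid-low libraries, in the order SLR14-1, SLR14-3 and polyIC-1 that is kept below. In the erythroid-high libraries, in the order SLR14-2, polyIC-2 and polyIC-3, it was at 13308, 15504 and 6612 CPM. The 4 adult globin genes were among the 5 core genes with the smallest differences (2.31 for Hba-a2, 2.61 for Hbb-bs, 2.70 for Hba-a1 and 2.98 for Hbb-bt). The 2 alpha genes and the 2 beta genes are near copies, so reads could be split between them.

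Most other core genes differed by more than the globins. Slc4a1 (chr11:102348824-102366203), the band 3 anion exchanger, was at 49.1, 56.4 and 7.90 CPM in erythroid-low and 2132, 3458 and 1488 CPM in erythroid-high libraries, a difference of 6.70. Klf1 was at 3.41, 3.58 and 0.790 CPM against 117, 161 and 75.9 CPM, and Epor at 3.21, 2.76 and 1.04 CPM against 67.1, 74.3 and 35.9 CPM. The spectrin gene Sptb differed by 6.26 and Alas2, the first enzyme of erythroid heme synthesis, by 2.95, and Gata1 by 3.45. In each of these 6 genes polyIC-1 was the lowest library and polyIC-2 the highest. Of the 90 wider erythroid genes that were fitted, the median difference was 3.12 and 88 did not overlap between the classes. In a bulk library, fewer cells of a type and less RNA per cell cannot be told apart.

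Outside the erythroid lists, 13008 genes had at least 1 CPM in at least 2 of the 6 libraries. In limma, 1637 of them (12.6%) were higher and 1011 (7.77%) lower in erythroid-high libraries at an adjusted p under 0.05. The rises were larger than the falls. At least 2-fold differences were found for 968 of the higher and 18 of the lower genes, and at least 4-fold differences for 372 and 0. The median difference over all tested genes was -0.03. Quantile normalization moved it to -0.17 and the split to 1474 higher and 2374 lower genes. The classes did not overlap, higher or lower, for 20.3% and 17.5% of the tested genes. The counts rested on 2 libraries above all, the only erythroid-high SLR14 and the only erythroid-low polyIC library. They were 359 and 5 without SLR14-2, and 195 and 4 without polyIC-1. They were 856 and 210 without SLR14-1 and 907 and 286 without SLR14-3, whereas leaving out polyIC-2 or polyIC-3 raised the higher count to 2004 and 2112. Without SLR14-2 or polyIC-1, 1 treatment held only 1 class. The class difference then rested on 1 library against 2 in the other treatment.

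The class difference had the same direction in the 2 treatments for most of the changed genes. Within SLR14 it compares SLR14-2 with 2 libraries and within polyIC 2 libraries with polyIC-1, so no library is shared. Of the 1022 genes at least 2-fold higher within SLR14, 98.1% were also higher within polyIC, against 45.9% of all tested genes. Of the 76 genes at least 2-fold lower within SLR14, 92.1% were also lower within polyIC, against 54.1% of all. Across the 13008 genes, which are not independent replicates, the 2 differences had a Pearson r of 0.87 and a Spearman rho of 0.71. The classes were chosen on erythroid level in both treatments, so this is a description. The difference between the 2 treatments' class effects passed the threshold for 0 genes (192 at an unadjusted p under 0.05, 0 and 198 in edgeR). For 47.0% of genes the 95% interval of that difference lay within 2-fold either way, so for the rest a difference of that size between treatments was not excluded. The lipoxygenase gene Alox15 was at 12.3 CPM in SLR14-2 and at 0.215 to 1.23 CPM in the other 5 libraries.

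**Figure D2:**
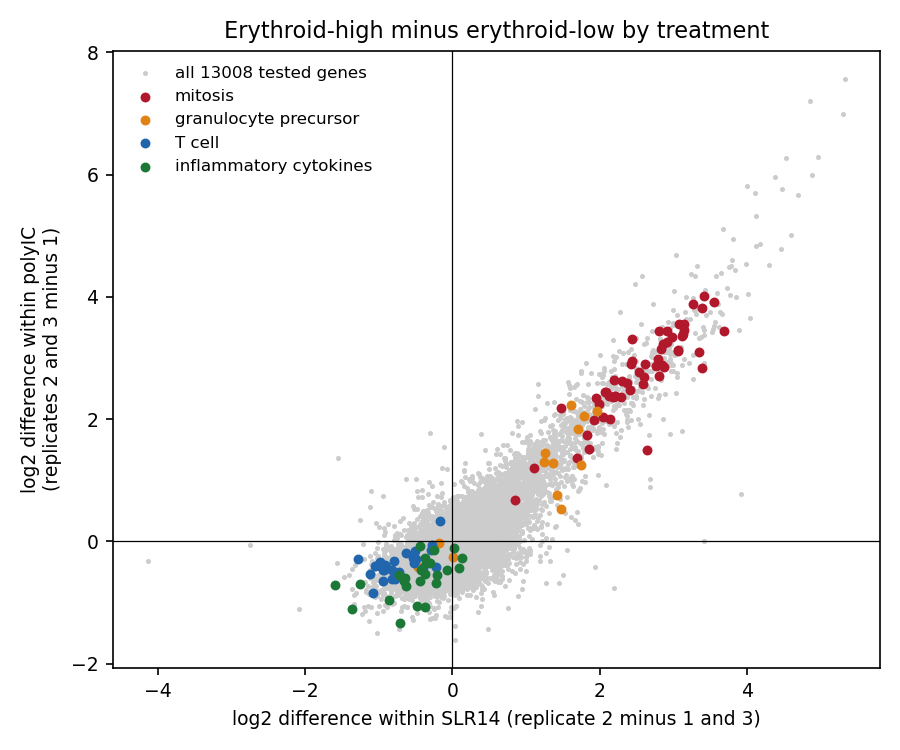
Log2 difference of erythroid-high minus erythroid-low libraries within SLR14 (horizontal axis) and within polyIC (vertical axis) for the 13008 tested genes in grey and for members of 4 gene lists in colour. Mitosis genes lie in the upper right with both differences above 0, and T cell and inflammatory cytokine genes lie mostly in the lower left.

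The 12 largest rises outside the erythroid lists included 3 genes of the apolipoprotein L family. Btnl10 (chr11:58917908-58927158), a butyrophilin-like membrane protein gene, was at 4.97, 5.82 and 0.734 CPM in erythroid-low and at 236, 371 and 147 CPM in erythroid-high libraries. Its log2 difference was 6.45 ± 0.52 (SE, adjusted p = 0.00136 in limma). Pln, which encodes phospholamban, the inhibitor of the calcium pump of the endoplasmic reticulum, was at 2.83, 3.49 and 0.339 CPM against 114, 92.9 and 45.9 CPM (5.63 ± 0.36, adjusted p = 0.00136). Both genes were high in all 3 erythroid-high libraries with no overlap, and both were lowest in polyIC-1.

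Apol11b, Apol8 and Apol10a lie near each other on chromosome 15 (chr15:77633946-77643286, chr15:77747798-77757003 and chr15:77477047-77491069). Apol11b was at 5.36, 9.01 and 1.27 CPM against 294, 362 and 140 CPM, a difference of 6.15 ± 0.48. Apol8 differed by 6.03 and Apol10a by 4.80. They are members of a family of similar genes, so the split of reads between them is uncertain. Aldh1a1, which makes retinoic acid from retinal, was at 13.8, 16.2 and 5.62 CPM against 341, 232 and 121 CPM (4.62 ± 0.25), and here SLR14-2 was the highest library. Slfn14, a ribosome-bound nuclease known from reticulocytes and platelets, was at 2.03, 3.15 and 0.508 CPM against 69.8, 111 and 53.5 CPM (5.40 ± 0.43). The others of the 12 largest rises were Pkhd1l1, Rab3il1, Sowaha, Tmem56 and Mylk3, at 4.72 to 5.44. All 12 had an adjusted p of 0.00136 to 0.00142, and each stayed past the threshold with any library left out. Pkhd1l1, Sowaha and Apol10a were under 1 CPM in every erythroid-low library and passed the filter only through the erythroid-high ones. Their calls are therefore not independent of how the classes were made.

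Slfn14 is known from red cell precursors although it stood on neither erythroid list, and the same may hold for others of the 12, so their rise is not independent of how the classes were made. In the 11 other libraries Btnl10 followed the order of the erythroid level of the groups. It was at 66.1 to 131 CPM in pppNS, 13 to 25.8 CPM in naïve, 4.29 to 11 CPM in vehicle and 3.53 to 6.56 CPM in SLR10 libraries. Pln did not follow that order, with 1.68 to 13.3 CPM in pppNS, 2.04 to 4.0 CPM in SLR10, and 0.184 to 0.417 CPM in vehicle and naïve libraries. Rab3il1 was lower in SLR10 (3.56 to 4.77 CPM) than in vehicle (18.9 to 26.3 CPM).

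The largest falls were smaller than the rises and included genes of cytokines and chemokines. Ifng (chr10:118441046-118445892), the gene of interferon gamma, was at 207, 313 and 256 CPM in erythroid-low and 59.7, 90.2 and 155 CPM in erythroid-high libraries. The classes did not overlap, and the log2 difference was -1.60 ± 0.30 (adjusted p = 0.012). Il1b, the gene of interleukin 1 beta, was at 155, 215 and 177 CPM against 70.8, 72.3 and 92.0 CPM (-1.24 ± 0.17, adjusted p = 0.00386), again without overlap. Without SLR14-2 or polyIC-1 the adjusted p of Ifng was 0.158 and 0.0536, and that of Il1b 0.0717 and 0.0560.

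A receptor and 3 of its ligands were among the 12 falls. Cxcr2, the receptor that draws neutrophils to these chemokines, was at 20.6, 36.1 and 60.3 CPM against 10.6, 27.2 and 31.7 CPM (-1.18 ± 0.22, adjusted p = 0.012). The classes overlapped in it, because SLR14-1 lay below polyIC-2 and polyIC-3, and the fall showed within each treatment. The ligand genes Cxcl5, Cxcl1 and Cxcl2 lie close together on chromosome 5 (chr5:90759360-90761624, chr5:90891241-90893115 and chr5:90903871-90905938). Cxcl2 was at 33.2, 31.0 and 38.4 CPM against 15.5, 14.8 and 19.2 CPM (-1.10 ± 0.14, adjusted p = 0.00322). Cxcl5 fell by 1.26 and Cxcl1 by 1.08, both without overlap. The other falls were Il1f9 (interleukin 36 gamma), Arg2 (mitochondrial arginase), Kcnj2 (a potassium channel), Cxcr6 (the receptor of Cxcl16), Mrgpra2b and Gpr171 (both receptors coupled to G proteins), at -1.22 to -1.08. Without SLR14-2 or polyIC-1, 1 of the 12 falls stayed past the threshold in each case.

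**Figure D3:**
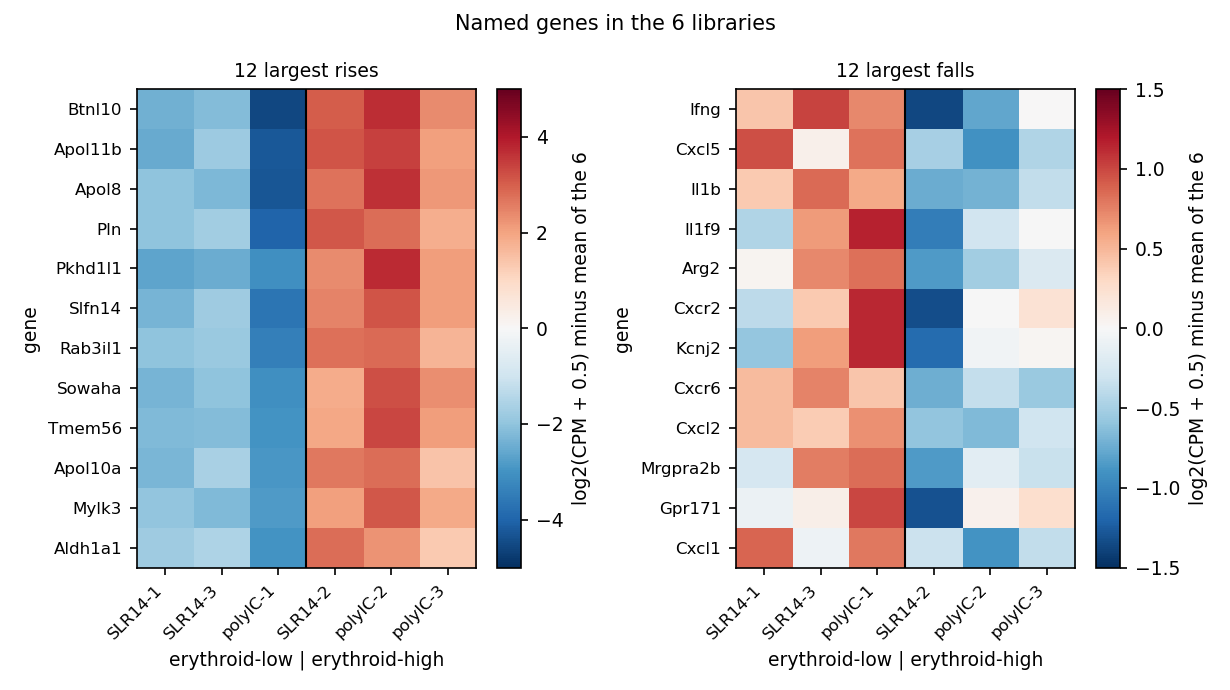
Log2(CPM + 0.5) of the 12 largest rises (left) and the 12 largest falls (right) in each of the 6 libraries, minus the gene's mean over the 6, with red above and blue below that mean and erythroid-low libraries left of the line. The colour scale spans 5 log2 units each way for rises and 1.5 for falls. The rises split the libraries cleanly, whereas in falls such as Cxcr2 and Gpr171 the low SLR14 libraries overlap the high polyIC ones.

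All 55 mitosis genes and 40 of 42 DNA replication genes were higher in erythroid-high libraries, against 12.6% of all tested genes, and none of either list was lower. Their median differences were 2.69 and 1.87, against -0.03 over all tested genes. Red cell precursors divide fast, so these lists are not independent of how the classes were made. Mki67 (chr7:135689784-135716361) was at 96.2, 93.6 and 101 CPM against 1228, 1789 and 671 CPM (3.56 ± 0.34, adjusted p = 0.00143). Ccnb2 (chr9:70407692-70421547) was at 8.46, 9.83 and 7.0 CPM against 112, 175 and 72.3 CPM (3.73 ± 0.32, adjusted p = 0.00136). In both, polyIC-2 was highest and the 3 erythroid-low libraries lay close together.

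Ube2c, which marks mitotic proteins for destruction, rose by 3.72 ± 0.30, and the mitotic kinase gene Plk1 by 3.10 ± 0.28. Of the replication genes, Rrm2, a subunit of the enzyme that makes deoxynucleotides, was at 18.6, 16.4 and 12.5 CPM against 193, 356 and 143 CPM (3.78 ± 0.34, adjusted p = 0.00139). The origin licensing genes Orc1 and Cdc6 rose by 3.70 ± 0.32 and 3.63 ± 0.31, and Mcm10 by 3.04 ± 0.27. Cdkn2c, an inhibitor of the kinases that open the cell cycle, was also higher, at 4.51, 3.71 and 2.99 CPM against 35.3, 57.9 and 26.1 CPM (3.23 ± 0.31). Without polyIC-1 the mitosis and replication counts were 18 and 8, and without SLR14-2 they were 43 and 18, with medians of 1.83 to 2.84.

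The SLR10 libraries, which were all erythroid-poor, had mean mitosis levels of 3.10 to 3.32, like the 3.08 to 3.23 of the erythroid-low libraries. Erythroid-high libraries reached 5.22 to 6.41, pppNS 4.80 to 5.79 and naïve mice 4.13 to 4.33. The plot of list levels shows that the mitosis level followed the erythroid level over all 17 libraries. The T cell, inflammatory cytokine and red pulp macrophage lists differed between SLR10 and vehicle libraries of like erythroid level.

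**Figure D4:**
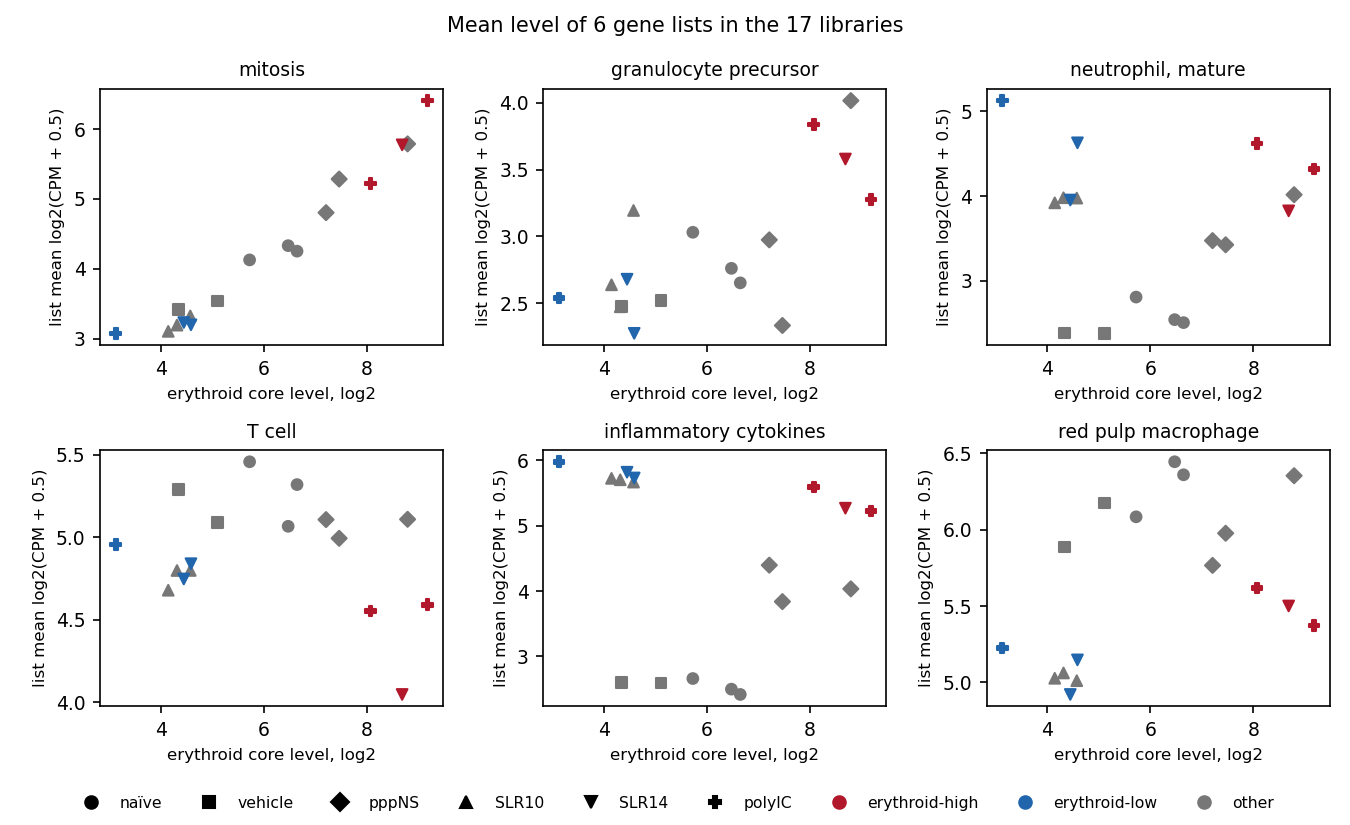
Mean log2(CPM + 0.5) of 6 gene lists (vertical axes) against the erythroid core level (horizontal axes) in the 17 libraries, with symbols for groups and red and blue for the erythroid-high and erythroid-low libraries. Mitosis runs from 3.08 to 6.41 along the erythroid level, and inflammatory cytokines are at least 5.22 in all SLR10, SLR14 and polyIC libraries whatever their erythroid level.

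Of 20 tested genes of autophagy and mitochondrial removal 10 were higher, of 22 of chromatin condensation and nuclear export 9, and of 44 nuclear genes of oxidative phosphorylation 18, against 12.6% higher and 7.77% lower of all tested genes. None of the 3 lists had a lower gene in this fit, whereas quantile normalization gave 2 autophagy genes and 1 chromatin gene lower, DESeq2 2 chromatin genes and the fit without polyIC-3 1 chromatin gene. Their medians were 0.42, 0.23 and 0.47. Red cell precursors condense and expel their nuclei and clear their mitochondria. The autophagy and chromatin lists are therefore not independent of how the classes were made. Xpo7 (chr14:70654246-70766628), a nuclear export receptor with a known part in nuclear condensation of red cell precursors, was at 39.5, 37.6 and 30.3 CPM against 177, 447 and 203 CPM (2.74 ± 0.34, adjusted p = 0.00294). Wipi1, which acts in making autophagosomes, was at 2.33, 1.38 and 2.06 CPM against 17.4, 36.0 and 14.9 CPM (3.08 ± 0.34). Both genes were highest in polyIC-2 and did not overlap.

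Atg4d, Ulk1 and Map1lc3b, further genes of autophagy, rose by 1.57, 1.14 and 1.02. Hmgb2, a chromatin protein of dividing cells, rose by 2.38, and the cell cycle brake Rb1 by 2.00. Cox6a1 and Ndufv1, subunits of respiratory complexes, rose by 0.97 and 0.94, whereas 0 of 12 tested genes encoded in mitochondrial DNA passed in limma, edgeR or DESeq2 (median -0.10, 0 at an unadjusted p under 0.05). Nor did any ribosomal protein gene pass in these tools (0 of 64, median -0.05, 2 at an unadjusted p under 0.05 in limma). Of 31 proteasome core genes 3 were higher, near the 12.6% of all tested genes. These smaller differences were sensitive to single libraries. Without polyIC-1 the counts of the autophagy, chromatin and oxidative phosphorylation lists were all 0, and without SLR14-2 they were 2, 2 and 0. Without SLR14-1 they were 4, 5 and 2, and without SLR14-3 6, 4 and 4. With all 17 libraries in the fit the oxidative phosphorylation count was 3.

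Iron and redox genes rose in a few members with large differences. Of 22 tested iron handling genes 6 were higher and 0 lower (median 0.40), and of 19 NRF2 targets, genes of the response to oxidants, 8 were higher and 1 lower (median 0.38), against 12.6% higher and 7.77% lower of all tested genes. Fam132b, which encodes erythroferrone, the hormone by which red cell precursors lower hepcidin, was at 0.383, 0.302 and 0.282 CPM against 4.22, 20.8 and 9.30 CPM (a log2 difference of 3.35). It passed the filter only through the erythroid-high libraries and is made by red cell precursors, so it is not independent of how the classes were made. It was high in the 3 erythroid-high libraries without overlap, and it was at 3.20 to 17.7 CPM in pppNS and at most 1.22 CPM in the SLR10, vehicle and naïve libraries.

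Gclm, a subunit of the enzyme that starts glutathione synthesis, was at 22.3, 21.8 and 21.4 CPM against 220, 323 and 168 CPM (3.35 ± 0.23, adjusted p = 0.00136), and Nqo1, a quinone reductase, rose by 3.01 ± 0.30. Nqo1 was at 0.650, 0.862 and 0.677 CPM in the erythroid-low libraries, so it passed the filter only through the erythroid-high ones. The ferritin genes Fth1 and Ftl1 rose by 0.64 and 0.60, and the iron transporter gene Slc11a2 by 0.94. Of 18 glycolysis genes 3 were higher and 2 lower, a share near that of all tested genes. Hk1, the hexokinase of red cells, was at 135, 118 and 132 CPM against 660, 667 and 415 CPM (2.18 ± 0.20), and Pfkm, a phosphofructokinase, rose by 2.94. Hk2, the other hexokinase of this list, went the other way, at 95.9, 80.3 and 93.7 CPM against 63.5, 54.8 and 65.4 CPM (-0.55 ± 0.13, adjusted p = 0.0244). As Hk1 is a red cell gene, its rise is not independent of how the classes were made. The same may hold for Pfkm, Gclm and Nqo1. Without polyIC-1 the higher counts of the iron and NRF2 lists were 0 and 2, and without SLR14-2 they were 1 and 2. Without SLR14-1 they were 1 and 3, and without SLR14-3 3 and 5.

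Of 13 tested genes of granulocyte precursors 9 were higher and 1 lower (median 1.32), and of 20 genes of mature neutrophils 0 were higher and 8 lower (median -0.70), against 12.6% higher and 7.77% lower of all tested genes. In 1 of the 20 mature neutrophil genes the classes did not overlap, against 17.5% of all tested genes. Mpo (chr11:87793581-87804413), the gene of myeloperoxidase, was at 8.34, 3.06 and 4.52 CPM against 21.5, 17.6 and 26.2 CPM (2.05 ± 0.35, adjusted p = 0.00856). The proteases Prtn3, Elane and Ctsg, stored in the same primary granules, rose by 1.93, 1.92 and 1.28, each without overlap. Prtn3 was at 2.45, 2.03 and 0.931 CPM against 7.83, 4.58 and 8.49 CPM, so the order of the erythroid-high libraries differed from that of the erythroid genes, with polyIC-3 highest and polyIC-2 lowest.

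The sum of the precursor list did not separate the classes as its median member did, at 304, 312 and 542 CPM against 403, 505 and 651 CPM. Of the mature neutrophil genes, Clec4e, a receptor of myeloid cells, was at 51.1, 85.5 and 103 CPM against 35.6, 43.4 and 54.8 CPM (-0.98 ± 0.21, adjusted p = 0.0189). Hdc, which makes histamine, fell by 0.78, and the cystatin-like gene Stfa2l1 by 1.13, and all 3 overlapped between the classes while falling within each treatment. Without SLR14-2 the precursor and neutrophil counts were 1 and 0, and without polyIC-1 both were 0. Without the treatment covariate 8 precursor genes were higher and 0 mature neutrophil genes lower, and with all 17 libraries in the fit 6 and 3. The mature neutrophil count was 12 without SLR14-1 and 5 without SLR14-3.

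Of 30 tested T cell genes 20 were lower in erythroid-high libraries and 0 higher (median -0.65), and of 26 B cell genes 14 were lower and 0 higher (median -0.41), against 7.77% lower of all tested genes. Tcf7 (chr11:52252371-52283014), a transcription factor of T cell development, was at 67.3, 58.1 and 84.0 CPM against 38.3, 56.2 and 55.5 CPM (-0.64 ± 0.11, adjusted p = 0.0088). Themis, which acts in T cell selection in the thymus, was at 9.83, 10.6 and 17.1 CPM against 4.57, 10.2 and 8.42 CPM (-0.96 ± 0.15, adjusted p = 0.00607). The classes did not overlap in Tcf7, by a narrow margin, whereas in Themis polyIC-2 lay above SLR14-1, and both genes were lower within each treatment.

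Ms4a1, which encodes the B cell protein CD20, was at 423, 460 and 429 CPM against 305, 267 and 282 CPM (-0.59 ± 0.10, adjusted p = 0.0086). The B cell genes Fcrl5, Btla and Bank1 fell by 0.75, 0.63 and 0.65. The summed T cell list was at 2025, 2141 and 2184 CPM against 1242, 1493 and 1587 CPM, and the summed B cell list at 9372, 8592 and 9353 CPM against 7708, 6486 and 8312 CPM. When libraries were scaled by the total of named genes outside the erythroid, replication and mitosis lists, 19 T cell and 12 B cell genes were lower, with medians of -0.66 and -0.42. Without SLR14-2, 0 T cell and 0 B cell genes were lower, and without polyIC-1 the counts were 1 and 0. The T and B cell medians were then -0.41 and -0.40 without SLR14-2, and -0.81 and -0.44 without polyIC-1. The counts were 6 and 6 without SLR14-1, and 6 and 8 without SLR14-3. They were 7 and 5 without the treatment covariate and 10 and 8 with all 17 libraries in the fit.

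Of 21 tested NK and cytotoxic genes 7 were lower and 0 higher (median -0.33), against 7.77% lower of all tested genes. Fasl, the ligand of the death receptor Fas, was at 3.94, 3.84 and 2.94 CPM against 1.71, 1.56 and 1.84 CPM (-0.82 ± 0.17, adjusted p = 0.0179). The granzyme genes Gzma and Gzmb fell by 0.68 and 0.66, and the kinase gene Txk by 0.79. The count was 0 without SLR14-1, SLR14-2 or SLR14-3 and 1 without polyIC-1. Of 19 conventional dendritic cell genes 6 were lower, led by Dpp4, Cd83 and Ffar2, and 2 higher. The lower count of this list was 1 without SLR14-1, 2 without SLR14-3, and 0 without SLR14-2 or polyIC-1. The higher one with the smallest p was Snx22, a sorting nexin, at 1.38, 1.55 and 0.395 CPM against 11.2, 29.6 and 10.5 CPM (3.46 ± 0.49). Of 12 plasmacytoid dendritic cell genes none passed in limma, edgeR or DESeq2 (median -0.17, 2 at an unadjusted p under 0.05 in limma), and of 16 plasma cell genes 3 were lower. The plasma cell count was 1 without SLR14-3 and 0 without SLR14-1, SLR14-2 or polyIC-1.

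**Figure D5:**
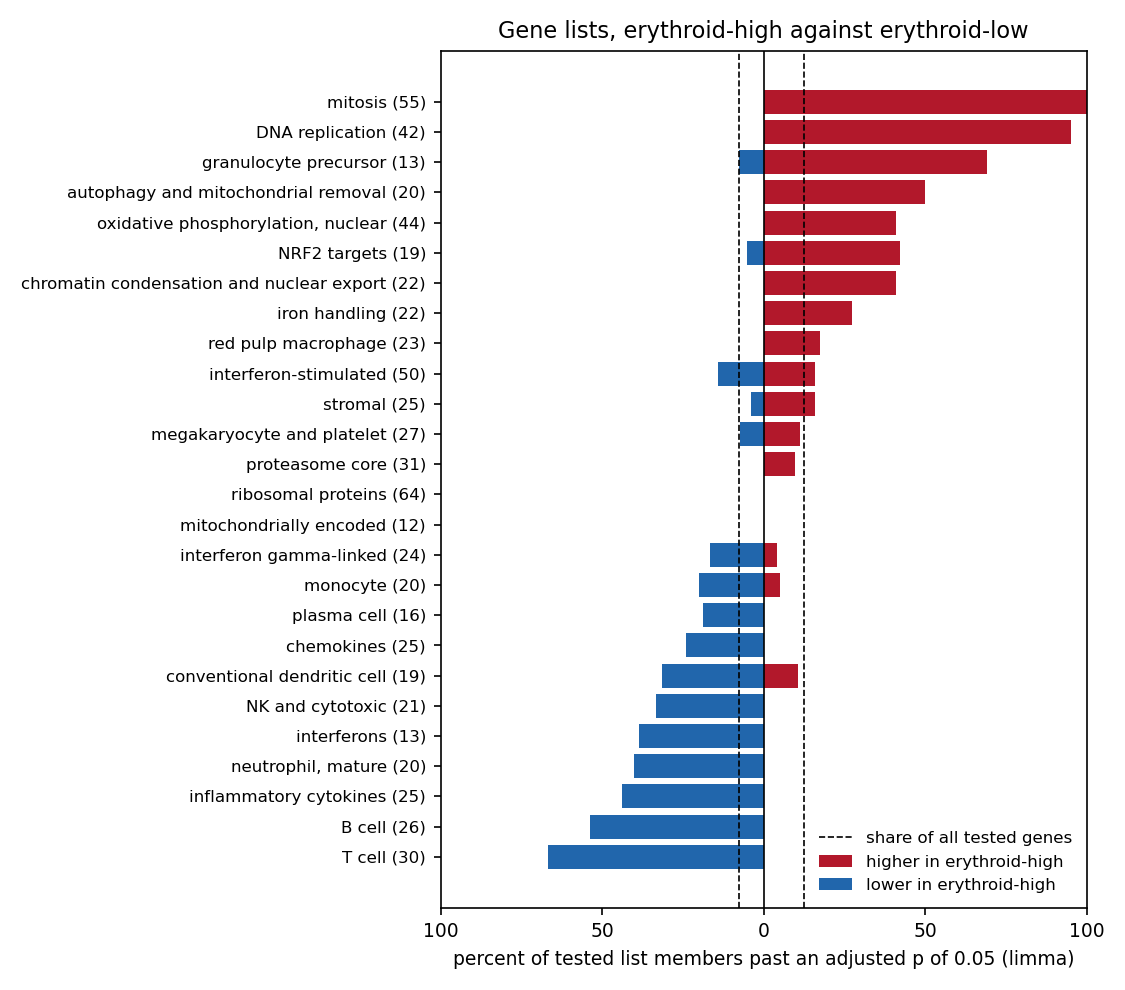
Percent of the tested members of 26 gene lists (number tested in brackets) past an adjusted p of 0.05 in limma, higher in erythroid-high libraries to the right and lower to the left, with dashed lines at the 12.6% and 7.77% of all tested genes. Mitosis and DNA replication stand at the top with 55 of 55 and 40 of 42 higher, and T and B cell genes at the bottom with 20 of 30 and 14 of 26 lower.

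Of 50 tested interferon-stimulated genes 8 were higher and 7 lower (median 0.17), against 12.6% higher and 7.77% lower of all tested genes. The mean level of the list was 9.18 to 9.30 in erythroid-low and 9.26 to 9.48 in erythroid-high libraries, against 4.81 to 5.36 in vehicle and naïve libraries. Ube2l6 (chr2:84798828-84810335), the enzyme that passes ISG15 to its targets, was at 275, 295 and 187 CPM against 971, 906 and 546 CPM (1.84 ± 0.19, adjusted p = 0.00176). Rsad2, the antiviral protein viperin, was at 1537, 1840 and 2433 CPM against 5589, 5286 and 3796 CPM (1.31 ± 0.23, adjusted p = 0.00928). Both were higher in every erythroid-high library, most in SLR14-2. Ube2l6 was also higher in naïve (69.9 to 138 CPM) than in vehicle libraries (51.1 to 53.6 CPM), the order of their erythroid level. The erythroid-poor SLR10 libraries had 255 to 277 CPM. The part of red cell precursors in its rise was not tested.

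Isg15 rose by 0.99 ± 0.15. Slfn5, a Schlafen family member, went the other way, at 1589, 1428 and 2045 CPM against 983, 1155 and 1273 CPM (-0.69 ± 0.11, adjusted p = 0.00776). Of 24 genes linked to interferon gamma 4 were lower and 1 higher (median -0.15), against 7.77% lower and 12.6% higher of all tested genes. Gbp4 and Gbp6, guanylate-binding GTPases, fell by 0.65 and 0.54. The lower count of the 24 genes was 1 without SLR14-1. It was 0 without SLR14-2, SLR14-3 or polyIC-1 or with all 17 libraries in the fit. Without SLR14-2 the interferon-stimulated counts were 1 higher and 0 lower, and without polyIC-1 2 and 0.

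Of 13 tested interferon genes 5 were lower and 0 higher (median -0.54), against 7.77% lower of all tested genes. Beside Ifng, Ifnb1 (chr4:88522025-88522774) was at 235, 241 and 76.9 CPM against 170, 45.6 and 55.2 CPM (-0.55 ± 0.11, adjusted p = 0.0168). The classes overlapped, because SLR14 libraries had more Ifnb1 than polyIC libraries, and the erythroid-high libraries lay below the others within each treatment. Ifna4 and Ifna2, near copies on chromosome 4 whose reads could be split, fell by 0.67 and 0.62. The interferon count was 0 without SLR14-2 or polyIC-1, 1 without SLR14-1, 3 without SLR14-3 and 8 without polyIC-2.

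Of 25 inflammatory cytokine and related genes 11 were lower and 0 higher (median -0.45), and of 25 chemokines 6 were lower and 0 higher (median -0.34), against 7.77% lower of all tested genes. Ptgs2, the inducible cyclooxygenase, was at 49.7, 32.0 and 36.6 CPM against 24.2, 12.2 and 16.5 CPM (-1.02 ± 0.23, adjusted p = 0.0226). Nfkbiz and Socs3, feedback genes of NF-kB and STAT3 signaling, fell by 0.62 and 0.64. Ccl7, a monocyte chemokine, fell by 0.64. Ccl21a, which stromal cells make to guide T cells, fell by 0.61, at 62.9, 65.0 and 66.8 CPM against 42.7, 45.2 and 40.5 CPM. The inflammatory mean level stayed at 5.22 to 5.60 in erythroid-high libraries, against 2.42 to 2.66 in vehicle and naïve and 3.84 to 4.40 in pppNS libraries. Without SLR14-2 or polyIC-1 the inflammatory count was 0, without SLR14-1 2 and without SLR14-3 4, and the chemokine count was 1, 0, 2 and 4.

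Red pulp macrophages, which recycle iron from old red cells and surround erythroid precursors, had 4 of 23 tested genes higher and 0 lower (median 0.40), not far from the 12.6% of all tested genes. Cd5l, a secreted protein of these macrophages, was at 16.1, 20.4 and 24.0 CPM against 28.9, 46.7 and 39.5 CPM (0.74 ± 0.14, adjusted p = 0.0133). The ficolin gene Fcna rose by 0.71, Marco, a scavenger receptor, by 0.71 and Sirpa, the receptor of CD47, by 0.43. In SLR10 libraries Cd5l was at 14.9 to 16.7 CPM, and in naïve mice at 74.9 to 93.9 CPM, so the erythroid-high libraries stayed below the naïve ones. The count was 0 without SLR14-2 or polyIC-1, 1 without SLR14-1 and 11 without polyIC-2.

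Megakaryocyte and platelet genes, from a lineage that shares a progenitor with red cells, had 3 of 27 higher and 2 lower (median 0.51), a share near that of all genes. P2ry1, a platelet receptor for ADP, Gp9, a part of the platelet receptor for Vwf, and Vwf itself rose by 1.09, 1.15 and 1.00. P2ry1 was at 2.83, 2.37 and 2.40 CPM against 6.28, 5.17 and 5.80 CPM. Stromal genes had 4 of 25 higher and 1 lower (median 0.30), near the 12.6% higher and 7.77% lower of all tested genes. Col1a1, a chain of type I collagen, was at 13.4, 9.48 and 10.3 CPM against 34.6, 18.8 and 30.6 CPM (1.38 ± 0.23, adjusted p = 0.00844), and Col5a1 rose by 1.32. The adipose and muscle list summed to 104 CPM in SLR14-2 and 23.2 to 32.5 CPM in the other 5 libraries, and its part in the stromal values was not tested. Of 20 monocyte genes 4 were lower, among them Ms4a4c and Treml2, against 7.77% lower of all tested genes. The list median was -0.06, and 0 were lower without SLR14-2 or polyIC-1. The 1 higher monocyte gene was Chil3, a chitinase-like protein that the granulocyte precursor list also holds, at 18.3, 11.1 and 14.5 CPM against 37.6, 29.7 and 43.0 CPM (1.32 ± 0.23). Without polyIC-1 the platelet and stromal higher counts were both 0, and without SLR14-2 they were 1 and 0. Without polyIC-2 they were 13 and 11.

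The same genes were then fitted against the erythroid core level within the SLR10, pppNS, vehicle and naïve groups, which the classes did not use. Of 12912 genes, 1716 (13.3%) had a positive and 1738 (13.5%) a negative slope at an adjusted p under 0.05. Of the mitosis genes 27 of 55 had a positive slope and 0 a negative one, of the red pulp macrophage genes 11 of 23 and 0, and of the T cell genes 0 and 5 of 30. Red cell precursors divide fast, so the mitosis slopes are not independent of the erythroid level they are fitted against. Ribosomal protein genes, none of which passed between the classes, had a positive slope in 42 of 64. These counts hung on single libraries. Without pppNS-3, the library with the highest erythroid level of the 11 and with 46.1% of its reads in lines without a gene name, 0 genes passed in either direction (735 at an unadjusted p under 0.05). Without SLR10-1, SLR10-2, SLR10-3, pppNS-1, pppNS-2 or naïve-3 at most 16 passed in each direction, and when libraries were scaled by the total outside the erythroid lists none did. The median slope per log2 unit of erythroid level without pppNS-3 was 0.26 for mitosis and 0.31 for red pulp macrophage genes, and -0.19 for T cell and 0.13 for ribosomal protein genes.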

How the data were processed

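RNA of 17 mouse spleen samples was sequenced from stranded mRNA libraries made from 500 ng of total RNA, per the labels' protocols. The submitters' processing notes list FastQC, TopHat2 2.0.6, SAMtools 1.4, HTSeq and edgeR and the builds GRCm38 and mm10, with no role or order. The deposited values are a signal that the authors made by dividing reads per gene by a normalised library size, named normalized CPM per the file headers. All values are whole multiples of a step per library (tolerance 0.01 reads), so whole reads were recovered for edgeR 4.0.16 and DESeq2 1.42.0, and 3 reads were taken as the floor of detection. Lines with no name (5), with the name #N/D (699) or with a name turned into a date (27) were dropped, as were the 113 shallower copies of repeated names, and 38340 genes remained. Per-library shares of the nameless lines were 28.1% to 46.1%. Intervals cover 95%.

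Genes with at least 1 CPM in 2 of the 6 libraries were fitted as log2(CPM + 0.5) with limma 3.58.1 in R 4.3.3, with class and treatment as terms, a mean-variance trend and Benjamini-Hochberg adjustment over the 13008 genes outside the erythroid lists, at a threshold of 0.05. Of 120 erythroid genes in the file, 113 were fitted and not tested. The fit has 3 residual degrees of freedom. Named are the 12 largest rises and falls that average at least 5 CPM and go the same way within each treatment, up to 4 members of each of 43 lists by p. Some genes that this rule names are not reported here. The classes, the gene lists and the rules were chosen with earlier results of these data known. Sequences are RefSeq promoters (GRCm38.p6) and gene positions are from GENCODE vM21. The script was tested on simulated data. Alternatives were other pseudocounts, filters, scalings and covariates, all 17 libraries in the fit, edgeR, DESeq2, a replicate block, and each library left out.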

Additional observations from a re-analysis of the deposited data

Results flagged for a closer look

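Reads in lines without a gene name were set aside in every comparison. They took 37.4% to 40.4% of the reads in the 6 SLR14 and polyIC libraries, above the 28.1% to 31.9% in the vehicle and naïve libraries. This difference drew attention because those lines were not tested as genes. Whether the authors' normalised library size counts their reads is not stated, and if it does they enter every CPM value. The share did not separate the classes, with 37.4% to 39.9% in the erythroid-high and 37.7% to 40.4% in the erythroid-low libraries.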

How the results depend on the processing

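Of 1637 higher genes, pseudocounts, filters, scalings, edgeR and DESeq2 gave 1436 to 1871, and for the 1011 lower genes 704 to 1311, except quantile normalization with 2374. The lower count was 419 without the treatment covariate and 408 with all 17 libraries in the fit. Leaving out a library gave 195 to 2112 higher and 4 to 1311 lower genes. Of 102 named genes, 67 lost their call without SLR14-2 and 73 without polyIC-1. The slope counts in the other 11 libraries (1716 positive, 1738 negative) were both 0 when libraries were scaled without erythroid genes, the negative count was 1147 in edgeR, and leaving out a library gave 0 to 2457 positive and 0 to 2804 negative genes. The class effect differed between treatments for 0 genes under every alternative run. The cause of these shifts was not tested.

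The labels give only a replicate number, and the data cannot tell whether it pairs the libraries. Deviations of equal numbers correlated at 0.79, 0.78 and -0.47, but numbers 1 and 2 share a class in both treatments and number 3 does not, and unlike numbers of the same class correlated at 0.70 (SLR14-3 with polyIC-1) and 0.49 (SLR14-2 with polyIC-3). With the replicate number as a block, 0 genes were higher and 0 lower (1562 at an unadjusted p under 0.05), the slope counts were 0 and 0, and the log2 difference of Cxcl1 turned to 0.023 (adjusted p 0.988). The block fit of the classes sees their difference only through SLR14-3 and polyIC-3, the only equal numbers of unlike class. It could hardly give a call, so its counts of 0 decide nothing. In it the median difference was 1.81 for mitosis, 1.06 for DNA replication and 0.03 for nuclear oxidative phosphorylation genes, and the 12 largest rises were at 3.28 to 5.30.

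With 3 libraries against 3, the tests rest on limma's pooled spread. Reads copied by PCR are not independent. Genes near 0.5 CPM have differences drawn towards 0.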
